A study of Mus musculus with 30 samples.

Results

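RNA from day 8 neural progenitor cultures (NPCs) of *Mbd3* knock-out (KO) cells carrying a full-length MBD2a construct was compared with RNA from *Mbd3* KO cells without a construct, over all genes. The comparison used the 3 libraries labelled full-length MBD2a (s13, s14 and s15) and the 3 libraries labelled *Mbd3* KO (s04, s05 and s06), out of 24 RNA-seq libraries and 30 samples in the series. Both lines were derived from HA36CB1 mouse embryonic stem cells (ESCs) of a 129 × C57BL/6 background. Both were *Mbd3* KO and were driven towards the neural fate for 8 days, so that the construct was the labelled difference between them. The *Mbd3* deletion had been made with CRISPR-Cas9, and the construct carried a biotin tag and had been placed by cassette exchange at a fixed genomic site behind the strong CAG promoter. Endogenous *Mbd2* was intact in both lines. The libraries of a line came from separately derived clones by the methods of the study, so the p-values below measure the spread between libraries within lines, which is a spread between clones except in the line with MBD2t. Libraries of unedited wild-type cells (WT, 3 libraries) and of *Mbd3* KO cells with MBD2t (3 repeats of a single clone), an MBD2 isoform lacking the C-terminal coiled coil, served as reference points.

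MBD2 and MBD3 are alternative subunits of the nucleosome remodelling and deacetylase (NuRD) complex, which joins a chromatin remodelling ATPase of the CHD family with histone deacetylases. MBD2 binds methylated CpG through its methyl-CpG-binding domain, whereas mammalian MBD3 has largely lost this preference. ESCs without *Mbd3* are known to leave the pluripotent state poorly, and full-length MBD2a differs from the shorter MBD2b by an N-terminal stretch that includes a glycine-arginine repeat. The comparison asks which transcripts of *Mbd3* KO cultures differ once the full-length isoform is labelled as present.

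The transcripts of *Mbd2* itself did not show the construct. The normalised *Mbd2* level, in counts scaled to library size (CPM), was 87.2 in s13, 86.3 in s14 and 67.0 in s15, against 65.3, 64.2 and 70.9 in s04, s05 and s06. The MBD2a and *Mbd3* KO values overlapped, and the difference of 0.26 ± 0.21 (SE) on the log2 scale did not pass the test (adjusted p = 0.521, edgeR). In the other lines with an MBD2 construct *Mbd2* was higher, at 280.3 to 700.2 CPM in MBD2a without its glycine-arginine repeat, 252.9 to 325.5 CPM in the MBD2a point mutant and 334.9 to 355.9 CPM in MBD2t, beside 40.8 to 50.5 CPM in WT. The 3 libraries are therefore called the libraries labelled MBD2a, and every direction given below is a difference between labels. By western blot of the ESC lines, the study reports MBD2a protein at a level similar to that of MBD3 and MBD2b. Those blots measured protein in ESCs, and the values here are transcripts at day 8. The same counting gave the higher *Mbd2* values of the other MBD2 construct lines, among them MBD2a with a point mutation. Why *Mbd2* was not higher in this line was not tested.

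Libraries s04 and s15 stood apart from the others of their lines. Each library was set against the mean of the other libraries of its line. Over genes on chromosome 1 the median log2 difference was -0.40 in s04 and -0.33 in s15. In s05, s06, s13 and s14 it was 0.11 to 0.30, but there the reference mean includes s04 or s15. *Mbd3* reads remained in the KO, whose edit targeted exons 2 and 3, and were also low in this pair, at 34.2 CPM in s04 and 36.4 CPM in s15. The other 4 libraries had 69.1 to 73.8 CPM of *Mbd3*, and WT had 149.0 to 156.9 CPM. *Mbd3* did not differ between the lines beyond its error (log2 difference 0.01 ± 0.27, SE). *Lars2*, the mitochondrial leucyl-tRNA synthetase, was at 3068 CPM in s04 against 170.9 to 188.1 CPM in s05 and s06 and 148.8 to 262.9 CPM in the MBD2a libraries. Its call of a fall (log2 difference -2.56, adjusted p = 0.0439, edgeR) became a log2 difference of 0.12 without s04. Total counts ran from 34446766 to 41444516 in *Mbd3* KO and from 31875299 to 36684317 in MBD2a, so that 3 counts, taken as the floor, correspond to 0.0724 to 0.0941 CPM. These floors cover counting error only.

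**Figure D1:**
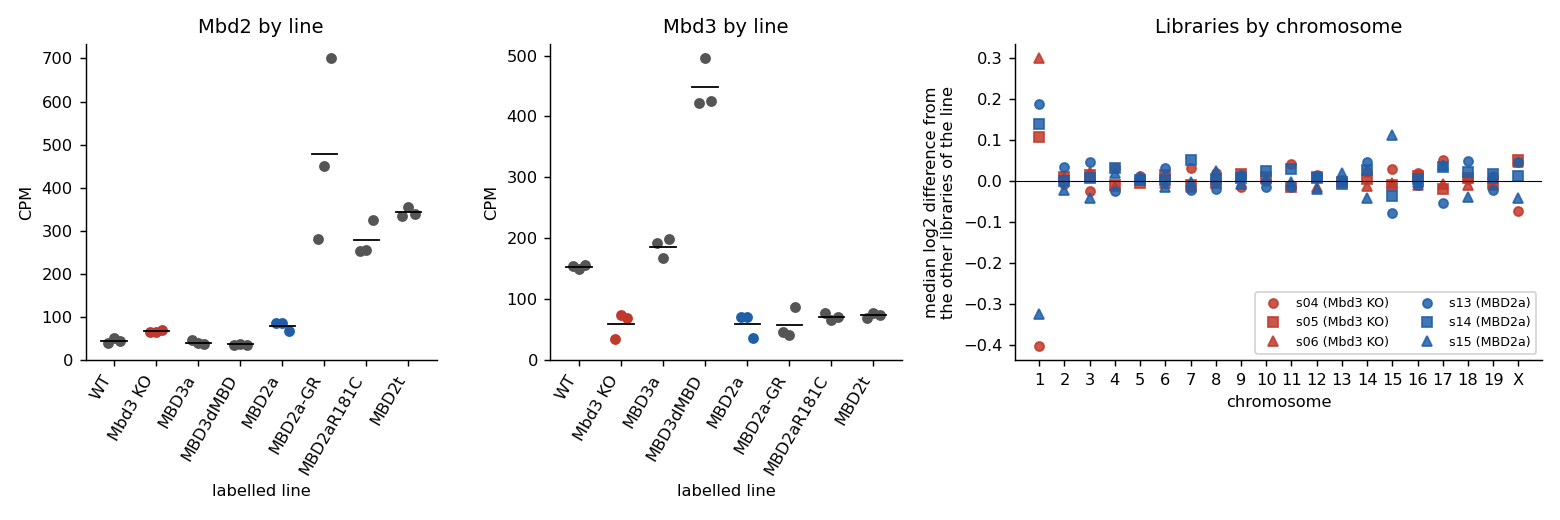
Checks of the 6 compared libraries beside the other lines, with *Mbd2* and *Mbd3* in CPM, each point 1 library. The last panel gives the median log2 deviation of the 6 libraries for each autosome and the X chromosome. The MBD2a libraries lie at 67.0 to 87.2 CPM of *Mbd2*, next to the *Mbd3* KO libraries, and s04 and s15 lie lowest for chromosome 1 and for *Mbd3*.

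The labelled tissue was checked against its markers. The neural progenitor and neuron markers tested lay below the lowest WT value in all 6 libraries, by unequal amounts. *Sox2*, a factor of stem cells and neural progenitors, was at 218.4, 113.8 and 64.48 CPM in s04 to s06 and at 103.1, 196 and 121.8 CPM in s13 to s15, against 263.7 to 277.4 CPM in WT. *Tubb3*, a neuronal tubulin, was at 83.6, 94.0 and 125.2 CPM in s04 to s06 and at 55.5, 85.0 and 25.1 CPM in s13 to s15, against 588.1 to 1161 CPM in WT. *Fabp7*, a fatty acid binding protein of radial glia, stayed at or under 0.518 CPM in all 6 libraries, where WT had 35.7 to 65.7 CPM. The pluripotency factor *Pou5f1* (Oct4) was at 176.2, 95.3 and 55.0 CPM in *Mbd3* KO and at 72.6, 112 and 121 CPM in MBD2a, and at 5.26 to 38.7 CPM in WT. Neither line thus had the marker levels of the WT progenitor cultures, and the name NPC below gives the protocol day. The leucocyte marker *Ptprc* had at most 1 count in any of the 6 libraries.

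Most genes that differed were lower in the libraries labelled MBD2a. Of 16582 genes tested, 646 (3.9%) were called, with a Benjamini-Hochberg adjusted p under 0.05 in edgeR's quasi-likelihood test and a log2 difference beyond 1. Of these, 117 (0.706%) were higher and 529 (3.19%) lower. The median log2 difference was 1.42 for the higher genes and -2.10 for the lower genes, and 0.02 over all genes tested. Beyond 8-fold lay 116 of the lower and 3 of the higher genes. The median level of the lower genes was 7.36 CPM in *Mbd3* KO, 1.503 CPM in MBD2a and 1.88 CPM in WT, and that of the higher genes was 2.02 CPM in *Mbd3* KO, 6.14 CPM in MBD2a and 4.26 CPM in WT. In 582 of the 646 genes the 3 libraries of one line did not overlap with the 3 of the other, as did 27.1% of all genes tested. Protein-coding genes made up 623 of the 646, which is 3.99% of the 15617 protein-coding genes tested and near the 3.9% of all genes. The count depends on the libraries that share the estimate of spread. With only the 6 libraries in the fit 140 genes were called (11 higher, 129 lower), of which 126 were among the 646. With all lines but MBD2t in the fit 470 genes were called (83 higher, 387 lower), of which 468 were among the 646. Of the genes described here, *Hoxa7*, *Zic1*, *Prss42*, *Ifi27*, *Ifi27l2a*, *Ifi204*, *Peg10*, *Postn*, *Lum*, *Elf5*, *Etv2*, *Pecam1*, *Krt17*, *Sfn*, *Serpinb9b*, *Slc22a18*, *Asb4*, *Nrk*, *Uty*, *Eif2s3y* and *Lars2* lost their calls in that fit.

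**Figure D2:**
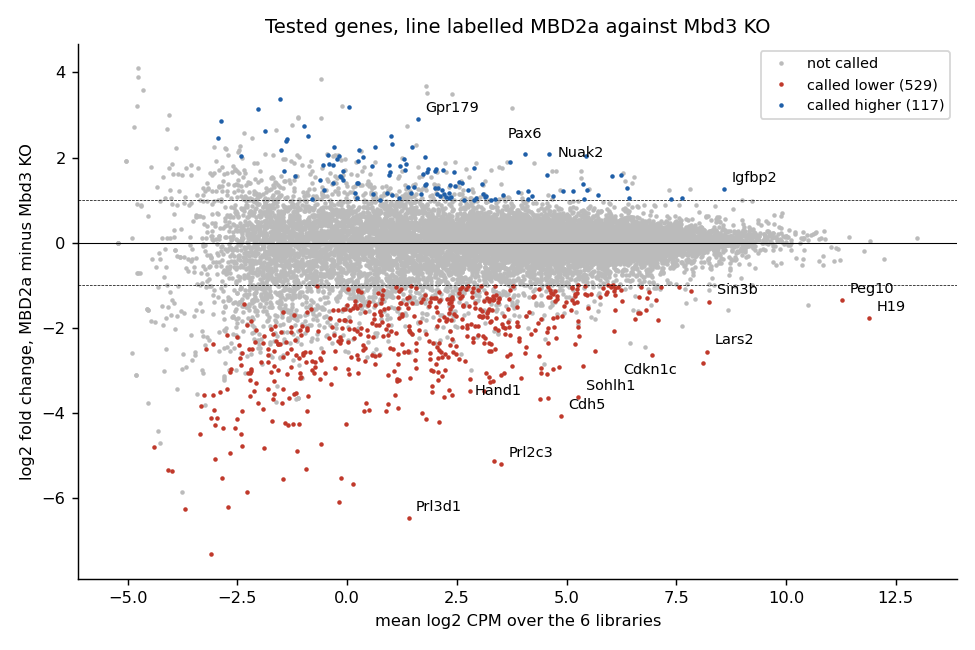
Log2 difference of MBD2a minus *Mbd3* KO (vertical axis) against mean level in log2 CPM over the 6 libraries (horizontal axis), each point 1 of 16582 genes, with called genes in colour. The 529 lower genes reach further from 0 than the 117 higher genes.

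The 3 libraries labelled MBD2a did not move equally. Taking each library against the mean of the *Mbd3* KO libraries, the median over the 529 lower genes was -2.19 in s13, -2.22 in s14 and -1.63 in s15 on the log2 scale. Over the 117 higher genes it was 1.69, 1.40 and 1.15. Library s15 held the highest MBD2a value for 338 of the 529 lower genes and the lowest for 67 of the 117 higher genes. Since s04 and s15 share the low chromosome 1, genes were also called without both, giving 122 higher and 814 lower genes, and then read in that left-out pair. From s04 to s15, 680 of the 814 lower genes (83.5%) were lower and 43.7% were over 2-fold lower, against 49.6% and 5.3% of all genes. Of the 122 higher genes 90.2% were higher and 43.4% over 2-fold higher, against 50.4% and 7.17% of all genes. The left-out pair thus differed the same way as the other 4 libraries, with a median of -0.82 for the lower and 0.78 for the higher genes. Chromosome 1 held 38 of the called genes, 12 higher and 26 lower, which is 3.91% of the 973 tested there and near the 3.9% of all genes. The median log2 difference of its genes was 0.15, against 0.02 over all genes tested. Of the genes described below, the higher *Nuak2*, *Kcnt2* and *Gbx2* and the lower *Twist2* and *Ifi204* are among those on chromosome 1.

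Among called genes without overlap and with a mean of at least 1 log2 CPM, the deepest falls were in genes of placental hormones. These limits also define the 10 largest falls, the 10 largest rises and the promoters shown for them. *Prl3d1* (chromosome 13, 27186081 to 27192124, mm9), placental lactogen of trophoblast giant cells, had 15.8, 25.8 and 36.6 CPM in s04 to s06 and 0.144, 0.236 and 0.484 CPM in s13 to s15. The groups lay apart by a log2 difference of -6.47 ± 0.73 (SE, adjusted p = 4.28e-05, edgeR), and WT had 0.203 ± 0.195 CPM (SD, n = 3). *Prl2c3*, a proliferin gene (chromosome 13, 12883089 to 12892345, mm9), was at 82.5, 69.7 and 87.2 CPM in *Mbd3* KO. It was at 0.576, 1.71 and 4.21 CPM in MBD2a, with s15 the highest (log2 difference -5.19 ± 0.72, SE, adjusted p = 0.000269). Its neighbour *Prl2c2* fell alike, from 69.4 ± 5.68 to 1.98 ± 1.74 CPM (SD, n = 3), and reads of these near-identical copies may be split or shared between them. *Prl7d1* (chromosome 13, 27800885 to 27808606, mm9) was at 14.4, 23.3 and 22.2 CPM in *Mbd3* KO and at 0.662, 0.530 and 2.04 CPM in MBD2a (log2 difference -4.20, adjusted p = 0.00489, edgeR). *Prl2a1* (log2 difference -4.13) and *Prl2c5* (-3.88) were among the 10 deepest falls as well. The call of *Prl2c5* was lost without s13 or without s14.

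The 250 bases before the RefSeq start of the 3 deepest falls that have an entry are shown because these genes fell together. Aligned without gaps, their windows ran from 35.3% to 94.8% identical. The windows lie in GRCm38.p6 at chr13:27093939-27094188 (*Prl3d1*, plus strand), chr13:12800080-12800329 (*Prl2c3*, minus strand) and chr13:27716738-27716987 (*Prl7d1*, minus strand). Each reads 5′ to 3′ on the strand of its gene, and capitals mark every CG.
Prl3d1: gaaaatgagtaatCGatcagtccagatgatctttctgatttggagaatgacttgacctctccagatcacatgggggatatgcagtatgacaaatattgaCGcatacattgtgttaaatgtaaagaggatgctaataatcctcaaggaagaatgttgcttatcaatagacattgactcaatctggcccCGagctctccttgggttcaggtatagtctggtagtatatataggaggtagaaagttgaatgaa
Prl2c3: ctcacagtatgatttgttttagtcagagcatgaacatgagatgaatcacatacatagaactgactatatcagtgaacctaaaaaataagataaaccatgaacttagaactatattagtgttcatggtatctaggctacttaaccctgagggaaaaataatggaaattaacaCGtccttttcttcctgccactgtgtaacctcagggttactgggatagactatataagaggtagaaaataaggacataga
Prl7d1: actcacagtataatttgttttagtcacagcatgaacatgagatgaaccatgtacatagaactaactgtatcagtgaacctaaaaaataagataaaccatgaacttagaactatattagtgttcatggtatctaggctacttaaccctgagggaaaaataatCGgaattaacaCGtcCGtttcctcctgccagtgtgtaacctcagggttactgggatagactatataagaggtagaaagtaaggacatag
The 3 windows hold 3, 1 and 3 CG. *Prl2c3* and *Prl7d1* were identical at 236 of 249 aligned positions (94.8%), and *Prl3d1* shared 35.3% and 35.5% of positions with them. The alignment shifted whole windows without gaps, so likeness beyond an inserted or lost base is missed. All 3 windows belonged to genes at or under 4.21 CPM in every MBD2a library.

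Genes of other placental families were also called lower, in unequal shares. All 17 prolactin family genes tested had a lower estimate in MBD2a, 13 of them called, beside the 3.19% of all genes that were called lower, and their summed level was 222 to 286 CPM in *Mbd3* KO, 3.45 to 15.8 CPM in MBD2a and 2.60 to 8.69 CPM in WT. The 8 *Serpinb9* genes, serine protease inhibitors with placental members, were all called lower, from a sum of 224 to 341 CPM to 17.5 to 66.9 CPM. *Serpinb9d* fell from 18.6 ± 6.79 to 1.49 ± 1.28 CPM (SD, n = 3) and *Serpinb9b* from 68.7 ± 13.9 to 8.18 ± 6.42 CPM. The call of *Serpinb9b* was lost on leaving out any library but s15. Of the placental cathepsins 3 of 5 tested were called lower, and of the pregnancy-specific glycoproteins 2 of 9, and each of these families had 1 member with an estimate above 0. The summed level of the glycoproteins was 4.66 to 9.43 CPM in *Mbd3* KO and 0.825 to 2.98 CPM in MBD2a, and WT overlapped with *Mbd3* KO at 3.33 to 11.1 CPM. These 4 families were chosen after their values were seen.

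Of the trophoblast list 13 of 38 tested genes were called lower and none higher, beside the 3.19% and 0.706% of all genes. The list's median was -1.44 and its summed level was 7180 to 9269 CPM in *Mbd3* KO, 1927 to 6690 CPM in MBD2a and 899 to 1575 CPM in WT. *Hand1*, a basic helix-loop-helix factor required for giant cells, was at 105.7, 85.5 and 124.5 CPM in s04 to s06 and at 1.15, 3.03 and 20.5 CPM in s13 to s15. All 3 MBD2a values lay below the *Mbd3* KO values (log2 difference -3.67 ± 0.81, SE, adjusted p = 0.00941, edgeR), and the call was lost without s14. *Prl7a1* and *Prl8a9* were the other members with the largest falls, both under 1 CPM in every MBD2a library. The rest were *Ctsq*, *Psg17* and *Psg19*, the stem cell factor *Elf5*, the regulators *Gata2* and *Ets2*, the hormone *Sct* and *Peg10*. The call of *Elf5* was lost without s04, s06, s13 or s14, and that of *Prl8a9* without s13 or s14. Of the defining trophoblast factors, *Cdx2* was at 3.917, 5.953 and 5.924 CPM in *Mbd3* KO and at 4.346, 4.183 and 6.906 CPM in MBD2a, with a log2 difference of -0.03 ± 0.57 (SE). *Eomes* was at 20.78, 8.565 and 5.052 CPM against 3.741, 4.861 and 12.79 CPM and did not pass the test (log2 difference -0.68 ± 0.62, adjusted p = 0.585, edgeR). In bulk RNA, fewer cells of a type and less RNA per cell cannot be told apart.

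Library s15 had higher levels of some epithelial transcripts than s13 and s14. *Krt7*, a keratin of simple epithelia, was at 471.5, 358.8 and 481.1 CPM in *Mbd3* KO and at 41.6, 67.2 and 385.3 CPM in MBD2a. *Krt18* was at 539.3, 546.5 and 751.4 CPM in *Mbd3* KO and at 235.8, 205.2 and 963.2 CPM in MBD2a. Neither passed the test (adjusted p = 0.194 and 0.749, edgeR), and for *Krt18* s15 was the highest of the 6 libraries. The X-linked homeobox gene *Rhox6* was lower in all 3 MBD2a libraries, at 14.5, 28.6 and 134.8 CPM against 241.2 to 392.4 CPM, without passing the test (adjusted p = 0.0954). Without s15 both *Krt7* (log2 difference -3.02, adjusted p = 0.00173, edgeR) and *Rhox6* (-3.93, adjusted p = 0.0133) were called, and *Rhox6* was also called by DESeq2 and by the likelihood ratio test. Of the keratin and *Rhox* families 1 of 20 tested genes each was called, both lower, near the 3.19% of all genes. These genes and families were chosen after their values were seen.

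**Figure D3:**
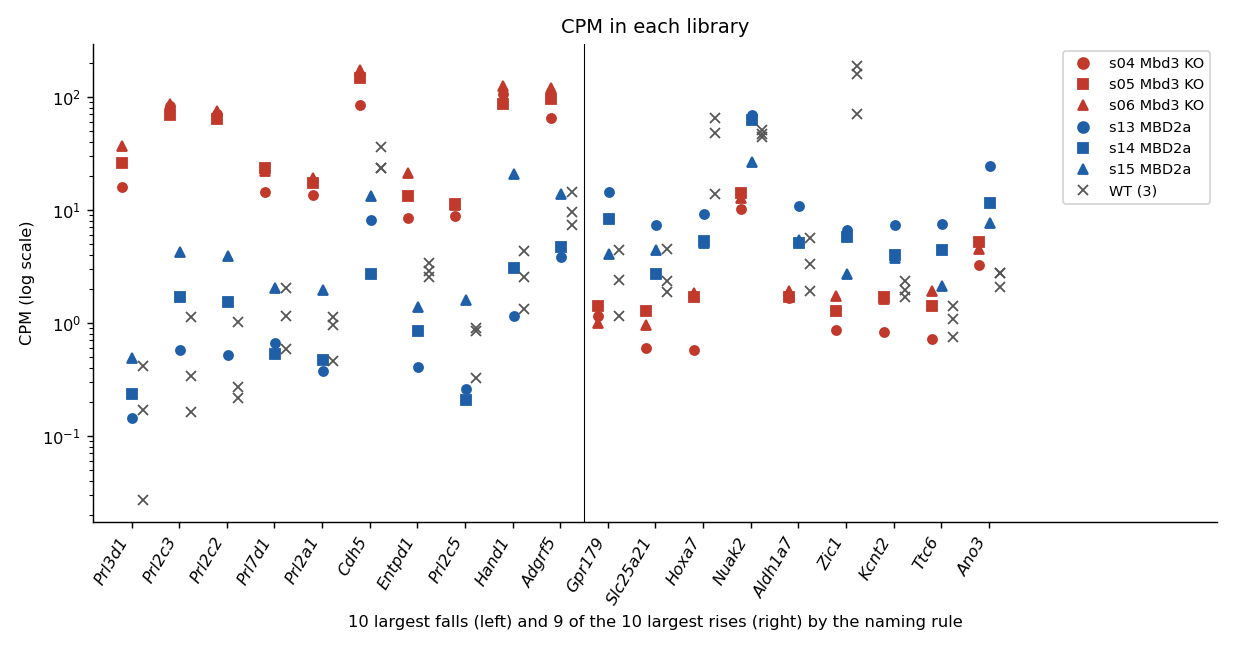
CPM on a log axis in each of the 3 *Mbd3* KO and 3 MBD2a libraries for the 10 largest falls and 9 of the 10 largest rises at a mean level of at least 1 log2 CPM, each point 1 library. For *Hand1* s15 (20.5 CPM) lies nearer to the *Mbd3* KO libraries than s13 (1.15 CPM).

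Of the blood and endothelium list 5 of 18 tested genes were called lower and none higher, beside 3.19% and 0.706% of all genes, with a median of -1.19 and 2 estimates above 0. *Cdh5*, the cadherin of endothelial junctions (chromosome 8, 106625525 to 106668402, mm9), was at 85.2, 145.7 and 174.4 CPM in s04 to s06 and at 8.12, 2.68 and 13.2 CPM in s13 to s15. The groups did not overlap and the log2 difference was -4.07 ± 0.47 (SE, adjusted p = 4.89e-05, edgeR). The WT mean of 27.7 ± 7.29 CPM (SD, n = 3) lay between the lines. *Tie1*, an endothelial receptor, fell from 9.26 ± 6.63 to 1.02 ± 0.178 CPM and *Kdr*, the receptor of vascular endothelial growth factor, from 13.4 ± 7.59 to 2.55 ± 1.69 CPM (SD, n = 3), while WT had 8.84 ± 0.500 CPM of *Tie1* and 16.1 ± 2.68 CPM of *Kdr*. For both genes s04 had the lowest *Mbd3* KO value, 2.06 CPM of *Tie1* and 4.86 CPM of *Kdr*, and the call of *Kdr* was lost without s05 or s14. *Etv2*, a factor that initiates the endothelial programme, and *Pecam1* were called close to the threshold (adjusted p = 0.0494 and 0.0347), and both calls were lost on leaving out a single library, except for *Pecam1* without s06. *Gata1*, a factor of blood cells, was under 1 CPM in all 6 libraries (log2 difference -0.05 ± 0.79, SE). Among the 10 largest falls were also *Entpd1*, an enzyme that degrades extracellular ATP, and *Adgrf5*, an adhesion receptor of endothelium and lung. *Entpd1* was at 8.40, 13.1 and 21.03 CPM in *Mbd3* KO and at 0.403, 0.854 and 1.376 CPM in MBD2a, and *Adgrf5* fell from 93.0 ± 27.7 to 7.43 ± 5.46 CPM (SD, n = 3).

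Of the mesenchymal and matrix list 10 of 43 tested genes were called lower and none higher (median -0.81), beside 3.19% and 0.706% of all genes, and 13 of the 43 estimates were above 0. *Col1a1*, a fibrillar collagen chain, was at 15.8, 24.9 and 28.1 CPM in *Mbd3* KO and at 3.97, 4.42 and 3.42 CPM in MBD2a. The log2 difference was -2.54 ± 0.66 (SE, adjusted p = 0.0234, edgeR), without overlap, and *Col1a1* in WT was variable at 36.1 ± 24.7 CPM (SD, n = 3). *Twist2*, a mesenchymal transcription factor, was at 7.75, 3.17 and 3.97 CPM against 0.345, 0.295 and 1.73 CPM. *Postn*, a matrix protein, fell from 3.33 ± 2.14 to 0.534 ± 0.286 CPM (SD, n = 3), where WT had 2.88 ± 1.34 CPM. The call of *Col1a1* was lost without any of s05, s06, s13, s14 or s15, that of *Postn* likewise, and that of *Twist2* without s13 or s14. The other called members were *Lum*, *Anxa1*, *Mfap2*, *Tpm2*, *S100a6*, *Col6a1* and *Loxl1*, and the call of *Lum* was lost without any of s05, s06, s13, s14 or s15. The other defining mesenchymal markers were not called, with log2 differences of 0.33 ± 0.45 (SE) for *Twist1*, -0.50 ± 0.86 for *Col3a1* and -1.03 ± 0.58 for *Acta2*.

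Among the imprinted genes 5 of 47 tested were called lower and none higher (median -0.35), beside 3.19% and 0.706% of all genes. *H19*, a maternally expressed non-coding RNA, had 9603, 6106 and 7458 CPM in *Mbd3* KO and 1035, 1648 and 4077 CPM in MBD2a. The libraries did not overlap (log2 difference -1.78 ± 0.40, SE, adjusted p = 0.0105, edgeR), and the call was lost without s13 or without s14. WT had 1051 ± 260 CPM (SD, n = 3) of *H19*, whose reads include those of *Mir675*. *Cdkn1c*, an inhibitor of cyclin-dependent kinases, was at 538.9, 764.4 and 1068 CPM in *Mbd3* KO and 149.8, 134.4 and 48.96 CPM in MBD2a (log2 difference -2.83 ± 0.44, adjusted p = 0.000826). Here MBD2a lay below WT as well, which had 794 ± 365 CPM. *Peg10*, a retrotransposon-derived gene needed for the placenta, was at 5418, 3783 and 3941 CPM against 1095, 841.2 and 3211 CPM (log2 difference -1.35, adjusted p = 0.0399), and its call was lost on leaving out any library but s15. *Slc22a18* and *Asb4* were the remaining members. The call of *Slc22a18* was lost without s04, s06, s13 or s14 and that of *Asb4* without s05, s06, s14 or s15.

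Of 56 tested germline genes 3 (5.36%) were called lower and none higher (median -0.18), a share near the 3.19% of all genes. *Sohlh1*, a germ cell transcription factor (chromosome 2, 25698515 to 25702768, mm9), was at 143.6, 143.6 and 125.0 CPM in s04 to s06 and at 8.40, 9.63 and 15.6 CPM in s13 to s15. The log2 difference was -3.62 ± 0.39 (SE, adjusted p = 3.73e-05, edgeR), and WT had 0.491 ± 0.149 CPM (SD, n = 3), so that MBD2a stayed above WT. *Khdc3*, an oocyte gene, behaved alike, at 125.2, 123.4 and 119.8 CPM in *Mbd3* KO, 16, 24.1 and 23.2 CPM in MBD2a and 0.966 ± 0.275 CPM in WT. The noradrenaline transporter gene *Slc6a2*, counted with the germline list, fell from 32.9 ± 8.57 to 2.93 ± 2.49 CPM (SD, n = 3), and its call was lost without s06, s13 or s14. The 250 bases before the RefSeq start of *Sohlh1* (GRCm38.p6, chr2:25847249-25847498, minus strand) are shown because they hold more CG, marked by capitals, than the prolactin windows. The gene was chosen after its values were seen.
Sohlh1: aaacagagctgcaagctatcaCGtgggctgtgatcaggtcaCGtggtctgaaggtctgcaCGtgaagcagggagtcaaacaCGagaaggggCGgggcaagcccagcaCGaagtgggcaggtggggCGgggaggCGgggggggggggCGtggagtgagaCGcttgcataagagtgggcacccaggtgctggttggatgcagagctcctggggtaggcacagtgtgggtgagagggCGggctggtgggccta
This window holds 11 CG, fewer than the median of 17 over all genes in the longer windows of 300 bases described below, and 3 copies of CACGTG, a motif that 9.1% of the windows of all genes tested hold in at least 1 copy on either strand.

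Of the interferon and innate immune list 7 of 74 tested genes were called lower and none higher (median -0.77), beside 3.19% and 0.706% of all genes, with 67 of the 74 estimates below 0. *Ifi27*, an interferon-induced mitochondrial protein, was at 25.5, 25.7 and 29.7 CPM in *Mbd3* KO and 3.51, 4.54 and 10.2 CPM in MBD2a. The values did not overlap (log2 difference -2.14 ± 0.58, SE, adjusted p = 0.0315, edgeR), and the call was lost on leaving out any library but s15. *Mx1*, an antiviral GTPase whose call was lost without s13 or s14, was at 2.89, 1.37 and 1.48 CPM against 0.0288, 0.118 and 0.663 CPM, and *Ifi204* and *Ifi27l2a* had a mean under 1 CPM in both lines. The call of *Ifi204* was lost without s06, s13 or s14, and that of *Ifi27l2a* on leaving out any library but s15. *Irf8*, an interferon regulatory factor named after its values were seen, fell from 16.9 ± 1.85 to 5.03 ± 1.45 CPM (SD, n = 3). *Tlr3* and *Tmem173* were also called lower. Without s04 and s15 the list had 30 lower genes of 74 tested and a median of -1.19, beside 814 lower of all 16721 genes tested. In that fit the trophoblast list had 18 lower genes of 38 and the mesenchymal and matrix list 9 of 43. In the epidermis and epithelium list *Krt17* and *Sfn* were called lower of 18 tested, beside 3.19% of all genes, and both calls were lost on leaving out any library but s15.

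Higher genes were fewer. Their median level was 2.02 CPM in *Mbd3* KO and 6.14 CPM in MBD2a, where that of all genes tested was 20.1 and 19.5 CPM. Of the *Hox* genes, which set position along the body axis, 8 of 32 tested were called higher and none lower (median 0.91), beside 0.706% of all genes. *Hoxa7* (chromosome 6, 52164490 to 52171853, mm9) was at 0.572, 1.68 and 1.82 CPM in s04 to s06 and at 9.18, 5.24 and 5.07 CPM in s13 to s15. The lines did not overlap (log2 difference 2.24 ± 0.62, SE, adjusted p = 0.0338, edgeR), but the call was lost on leaving out any library but s15, and WT was far higher at 42.3 ± 26.0 CPM (SD, n = 3). *Hoxc9* rose from 0.987 ± 0.641 to 5.63 ± 3.76 CPM (SD, n = 3), and *Hoxc13* from 0.733 ± 0.177 to 3.49 ± 1.65 CPM, where WT had 1.85 ± 0.734 and 0.468 ± 0.1501 CPM. The call of *Hoxc9* was lost without s13, and that of *Hoxd9* without s04 and s15 together. *Hoxb1*, *Hoxc10* and *Hoxd13* were among the others called. The summed level of the list ranged from 231 to 879 CPM in *Mbd3* KO, 565 to 1469 CPM in MBD2a and 3819 to 5961 CPM in WT, so that these ranges overlapped between the 2 KO lines.

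Of the neural progenitor list 6 of 48 tested genes were called higher and 2 lower (median 0.24), beside 0.706% and 3.19% of all genes, so that the share of lower genes was near that of all genes. *Pax6*, a homeobox factor of neural progenitors, was at 3.52, 12.2 and 14.2 CPM in *Mbd3* KO and at 58.9, 58.7 and 9.99 CPM in MBD2a, against 169 ± 27.6 CPM (SD, n = 3) in WT. In *Pax6* s15 lay within the *Mbd3* KO range, so the lines overlapped (log2 difference 2.09 ± 0.46, SE, adjusted p = 0.00958, edgeR), and the call was lost without s13 or without s14. *Zic1*, a zinc finger factor of the dorsal neural tube, was at 0.858, 1.28 and 1.72 CPM against 6.68, 5.75 and 2.73 CPM, with WT at 140 ± 61.5 CPM. Its call was lost on leaving out any library but s15. *Sp8* rose from 0.376 ± 0.166 to 3.501 ± 2.46 CPM (SD, n = 3), where WT had 47.0 ± 3.64 CPM. *Otx2*, *Dll1* and *Pou3f3* were also called higher. *Lfng*, which modifies the Notch receptor, went the other way, from 24.3, 31.6 and 27.9 CPM to 5.07, 6.42 and 7.11 CPM (log2 difference -2.17 ± 0.30, adjusted p = 0.000269), and so lay further from WT (55.2 ± 13.98 CPM). *Irx3* was the other lower member. *Sox2* (0.09 ± 0.30) and *Nes* (-0.19 ± 0.21) had log2 differences within their errors.

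Of the neuronal list 4 of 63 tested genes were called higher and 1 lower, beside 0.706% and 3.19% of all genes. The median of 0.32 ran from -0.07 to 0.64 with single libraries left out. The higher genes were *Neurog2*, *Neurod4*, *Pou4f1* and *Nefh*. *Neurog2*, a proneural factor, was at 0.343, 0.465 and 0.476 CPM in *Mbd3* KO and 1.78, 4.09 and 0.382 CPM in MBD2a, while WT had 52.2 ± 21.5 CPM (SD, n = 3). *Neurod4* was at 0.143, 0.310 and 0.265 CPM against 1.15, 3.62 and 0.204 CPM. In both of these s15 lay within the *Mbd3* KO range, and both calls were lost without s04, s05, s06 or s14. *Nefh*, a neurofilament gene, was higher in all MBD2a libraries, at 11.2, 8.90 and 6.58 CPM against 3.03, 4.23 and 3.23 CPM (log2 difference 1.34 ± 0.25, adjusted p = 0.0031, edgeR). *Rbfox3*, which encodes the neuronal marker NeuN, fell from 8.51 ± 4.04 to 1.73 ± 0.362 CPM (SD, n = 3), and its call was lost without s05, s06, s13 or s14.

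Of the neural genes that the study follows, *Pax6*, *Neurog2*, *Neurod4* and *Rbfox3* were called, as given above. The surface markers and the study's other neural genes were not called. The log2 difference was -0.26 ± 0.18 (SE) for *Cd24a* and -0.40 ± 0.43 for *Ncam1* (CD56). *Neurog1* was at 1.03, 1.86 and 1.96 CPM in *Mbd3* KO and 2.65, 10.3 and 1.15 CPM in MBD2a (log2 difference 1.53 ± 0.54, adjusted p = 0.0981, edgeR). It was called without s15 (1.98) and by DESeq2 and the likelihood ratio test. For *Map2* the log2 difference was 0.38 ± 0.51, for *Dcx* -0.18 ± 0.79 and for *Tubb3* -0.87 ± 0.37. The highest MBD2a value of *Map2*, *Tubb3* and *Neurog1* lay below the lowest WT value. Errors of this size leave room for differences over 2-fold in *Dcx* and *Map2*.

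**Figure D4:**
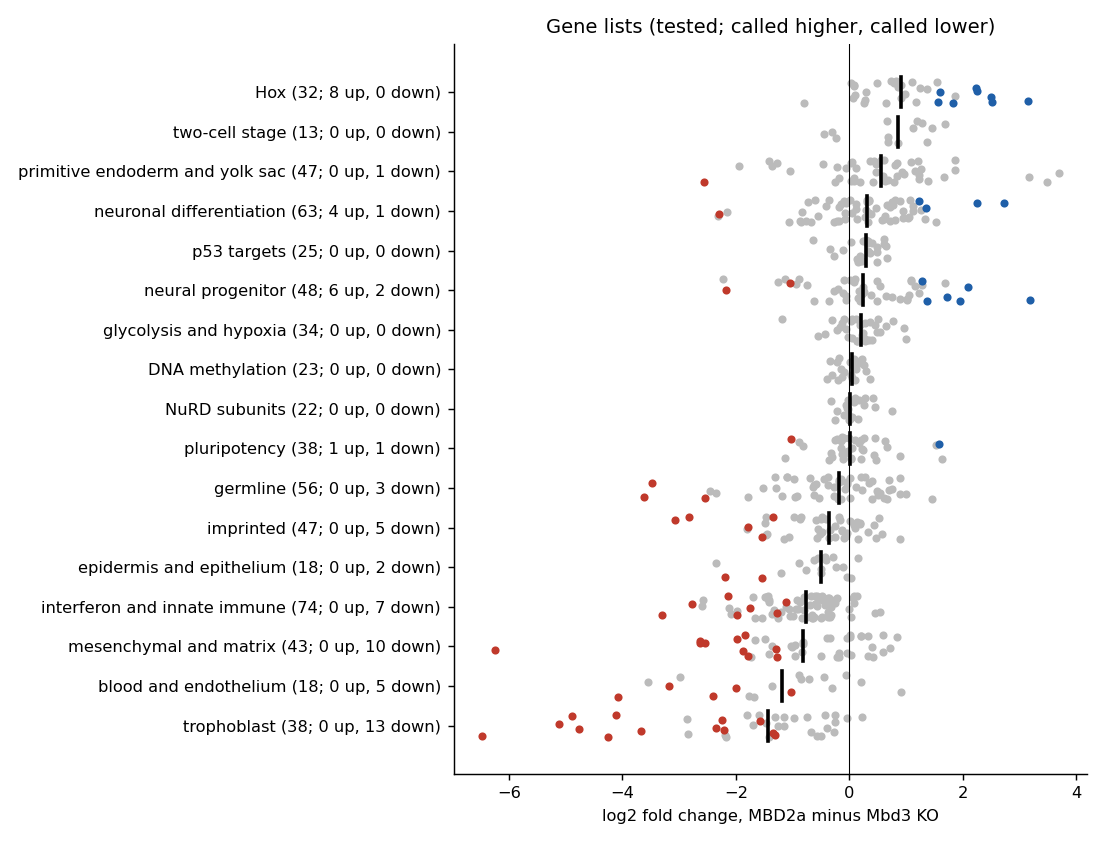
Log2 difference of MBD2a minus *Mbd3* KO for the tested members of each gene list, each point 1 gene, with called genes in colour and the list median marked. The trophoblast, mesenchymal, endothelial and interferon lists have called genes below 0 and none above, and the *Hox* list has called genes above 0 and none below.

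The largest rises came from several classes of gene. *Gpr179*, an orphan receptor of retinal bipolar cells (chromosome 11, 97193423 to 97213391, mm9), was at 1.14, 1.39 and 1.00 CPM in s04 to s06 and at 14.4, 8.25 and 4.03 CPM in s13 to s15. The groups lay apart, with a log2 difference of 2.91 ± 0.53 (SE, adjusted p = 0.00245, edgeR), and MBD2a exceeded WT (2.65 ± 1.64 CPM, SD, n = 3). *Slc25a21*, a mitochondrial carrier (chromosome 12, 57813621 to 58298459, mm9), was at 0.6004, 1.28 and 0.952 CPM against 7.28, 2.71 and 4.38 CPM (log2 difference 2.33 ± 0.44, adjusted p = 0.00351). It overlaps *Pax9* on the opposite strand, and *Hoxa7*, *Zic1*, *Ttc6*, *Ano3* and *Pax6* also overlap genes of the other strand, from which reads cannot be told apart where the counting ignored strand. *Nuak2*, an AMPK-related kinase, was at 10.1, 14.1 and 12.6 CPM in *Mbd3* KO and 68.5, 62.2 and 26.4 CPM in MBD2a, and WT had 47.3 ± 2.97 CPM. *Nuak2* (log2 difference 2.09, adjusted p = 4.5e-05, edgeR) kept its call with any single library left out. With only the 6 libraries in the fit the calls of *Nuak2*, *Gpr179* and *Slc25a21* were lost.

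The other large rises were smaller in level. *Kcnt2*, a potassium channel gene, rose from 1.39 ± 0.488 to 5.0 ± 1.98 CPM (SD, n = 3) and *Aldh1a7*, an aldehyde dehydrogenase gene, from 1.75 ± 0.136 to 7.10 ± 3.25 CPM. *Ttc6* rose from 1.34 ± 0.597 to 4.68 ± 2.72 CPM and *Ano3*, an anoctamin gene, from 4.31 ± 0.991 to 14.6 ± 8.82 CPM. The calls of *Aldh1a7*, *Ttc6* and *Ano3* were lost without s13, that of *Aldh1a7* also without s05, and that of *Ttc6* also without s04, s05 or s14. Below a mean of 1 log2 CPM the largest rises were *Prss42*, *Sp8*, *Hoxc10*, *Dlx6* and *Neurod4*, and the deepest falls *Pate12*, *Lum*, *Myct1*, *Prl3d3* and *Gimap6*.

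The 250 bases before the RefSeq start of the 3 largest rises are shown for comparison with the deepest falls, again from GRCm38.p6, 5′ to 3′ on the strand of the gene and with CG in capitals: chr11:97352357-97352606 (*Gpr179*, minus strand), chr12:57197473-57197722 (*Slc25a21*, minus strand) and chr6:52218574-52218823 (*Hoxa7*, minus strand).
Gpr179: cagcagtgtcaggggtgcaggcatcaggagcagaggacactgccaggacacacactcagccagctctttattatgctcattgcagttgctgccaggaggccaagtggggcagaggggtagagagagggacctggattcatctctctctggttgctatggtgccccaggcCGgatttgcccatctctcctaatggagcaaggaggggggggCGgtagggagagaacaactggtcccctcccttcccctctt
Slc25a21: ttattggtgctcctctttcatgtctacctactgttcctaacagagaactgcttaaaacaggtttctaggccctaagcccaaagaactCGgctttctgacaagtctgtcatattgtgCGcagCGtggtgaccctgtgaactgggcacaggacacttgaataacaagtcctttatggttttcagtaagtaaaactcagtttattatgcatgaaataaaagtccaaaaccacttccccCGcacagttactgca
Hoxa7: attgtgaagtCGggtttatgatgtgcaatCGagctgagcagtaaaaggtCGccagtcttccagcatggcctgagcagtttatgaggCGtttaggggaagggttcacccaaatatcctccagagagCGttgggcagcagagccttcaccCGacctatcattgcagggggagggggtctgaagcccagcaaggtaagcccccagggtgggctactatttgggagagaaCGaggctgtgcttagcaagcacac
These windows hold 2, 4 and 7 CG. Over windows of 300 bases (250 before to 50 after the start, on the NCBIM37 gene models) the median number of CG was 17 for all genes tested, 8 for the lower and 12 for the higher genes. Windows with at most 5 CG made up 36.3% for the lower and 23.9% for the higher genes, against 17.4% of all genes. The motif CACGTG, searched on both strands, was in 8.32% of the lower, 6.84% of the higher and 9.1% of all windows. These are shares of letters in a window and carry no information on binding or methylation.

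Several lists had no called gene, where 3.9% of all genes tested were called. With 13 to 34 tested genes each, these lists are too short for such a count to differ clearly from that share. Of 22 NuRD subunit genes none was called (median 0.01), and *Chd4*, its remodelling ATPase, was at 752.3, 739.6 and 728.6 CPM in *Mbd3* KO and 881.5, 924.7 and 681.2 CPM in MBD2a. The log2 difference of *Chd4* was 0.16 ± 0.19 (SE) and that of *Rbbp7*, a histone chaperone subunit, -0.04 ± 0.33. Of 23 genes of DNA methylation none was called (median 0.05). *Mbd1*, which encodes another methyl-CpG-binding protein, had an adjusted p of 0.0211 (edgeR) but a log2 difference of only -0.40 ± 0.10, from a mean of 48.5 CPM in *Mbd3* KO to 36.8 CPM in MBD2a without overlap. The log2 difference was -0.15 ± 0.14 for the maintenance methyltransferase *Dnmt1* and -0.31 ± 0.10 for the histone methyltransferase *Ehmt2*. No gene was called among 25 p53 targets (median 0.29), 34 genes of glycolysis and hypoxia (median 0.21) or 13 genes of the two-cell stage (median 0.87). Of the p53 targets 21 had an estimate above 0 and 4 below, and in 11 of the 25 the lines did not overlap, beside 27.1% of all genes. Among them *Bbc3* (log2 difference 0.50, adjusted p = 0.0462, edgeR) and *Polk* (0.61, adjusted p = 0.0438) passed on p alone, below the 2-fold threshold. Across the NuRD and methylation lists log2 differences ran from -0.40 to 0.76.

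Of the pluripotency list 1 of 38 tested genes was called higher (*Gbx2*) and 1 lower (*Pecam1*), near the 0.706% and 3.19% of all genes. The median was 0.01 and ran from -0.23 to 0.50 with single libraries left out. *Nanog* was at 163.9, 84.3 and 40.3 CPM in s04 to s06 and 46.1, 94.7 and 91.6 CPM in s13 to s15. Its log2 difference was -0.31 ± 1.13 (SE), and the spread among *Mbd3* KO libraries exceeded the difference between lines. The differences of *Zfp42* (-0.36 ± 0.90), *Dppa5a* (-0.24 ± 1.14), *Dppa2* (-0.15 ± 1.07), *Dppa4* (0.48 ± 0.79), *Klf4* (-0.02 ± 0.62), *Klf5* (-0.21 ± 0.45) and *Tbx3* (0.17 ± 0.46) were likewise smaller than their errors. *Gbx2* was at 9.15, 18.7 and 17.8 CPM against 82.1, 38.7 and 16.5 CPM, and its call was lost without s13, s04 or s06. In the primitive endoderm and yolk sac list 1 of 47 tested genes was called, beside 3.9% of all genes: *Thbd*, which was lower (10.9 ± 0.426 to 1.83 ± 0.605 CPM, SD, n = 3) and lost its call without s14, although the median was 0.55. *Gata4*, a defining factor of that lineage, was at 5.43, 13.8 and 19.3 CPM in *Mbd3* KO and 51.3, 8.40 and 80.7 CPM in MBD2a, without passing the test (adjusted p = 0.254, edgeR).

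To place the libraries without using the comparison itself, genes called between MBD2t and WT (5406 genes, 32.6%) were taken as an axis from WT (0%) to MBD2t (100%). None of these 6 reference libraries enters the values compared. MBD2t differed from *Mbd3* KO in only 1 called gene, so the far end of the axis lies near *Mbd3* KO. The *Mbd3* KO libraries lay at 113% (s04), 93.8% (s05) and 92.4% (s06), and the MBD2a libraries at 72.5% (s13), 76.3% (s14) and 99.1% (s15). Library s15 lay among the *Mbd3* KO libraries, and the line means differed by -17.0 percentage points (exact two-sided permutation test, p = 0.3, where 3 against 3 libraries cannot go below 0.1). On the genes higher in MBD2t than in WT, MBD2a lay at 63.7%, 68.5% and 92.7% and *Mbd3* KO at 99.5% to 105%, without overlap (difference -26.3 points, p = 0.1 in the exact test, the smallest it allows). On the genes lower in MBD2t the difference was -6.82 points (exact permutation p = 0.6). Whether the 2 gene sets differed in this was not tested.

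**Figure D5:**
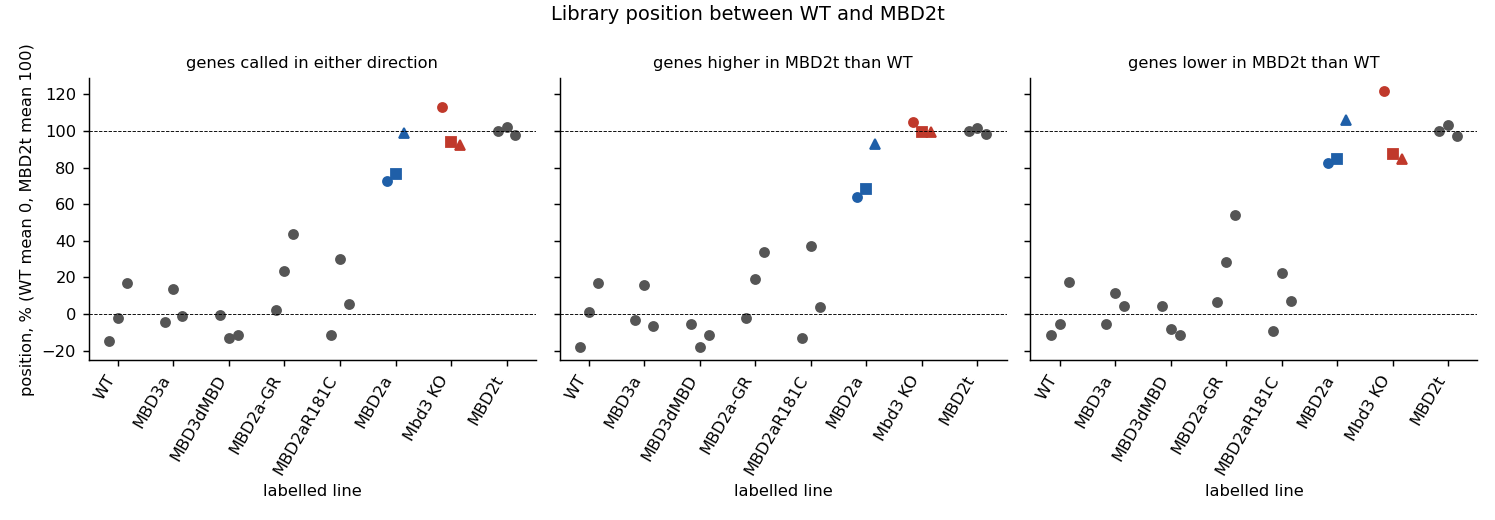
Position of each library on the axis from the WT mean (0%) to the MBD2t mean (100%), each point 1 library, for all axis genes and for those higher or lower in MBD2t. The MBD2a libraries s13 and s14 lie at 72.5% and 76.3%, and s15 at 99.1% lies within the *Mbd3* KO range.

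Gene by gene, the difference between MBD2a and *Mbd3* KO was set beside that between WT and MBD2t, which shares no library with it. Of the 529 genes lower in MBD2a, 319 (60.3%) were called lower in WT than in MBD2t and 31 (5.86%) higher, whereas 17.7% and 14.9% of all genes were. Of the 117 higher genes 53 (45.3%) were called higher in WT and 8 (6.84%) lower. Across all genes Spearman's rho was 0.31, as a description over genes that are not independent. By sign alone, 425 of the 529 lower genes were lower and 87 of the 117 higher genes were higher in WT than in MBD2t. Many genes described here did not come nearer to the WT mean in the libraries labelled MBD2a. Among the lower genes these included *Cdkn1c*, *Lfng*, *Rbfox3*, *Col1a1*, *Tie1*, *Kdr*, *Twist2* and *Postn*. Among the higher genes they included *Nefh*, *Ano3*, *Hoxc13* and *Fzd7*.

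MBD2a and MBD2t, both labelled as MBD2 isoforms in the same KO background, differed in 462 genes (2.79%), 116 higher and 346 lower in MBD2a. Since MBD2t against *Mbd3* KO gave only 1 called gene, this comparison is close to a repeat of MBD2a against *Mbd3* KO. *Sohlh1* (log2 difference -3.51, adjusted p = 4.54e-05, edgeR), *Prl3d1* (-5.51, adjusted p = 0.000177), *Cdh5* (-3.60, adjusted p = 0.000177) and *Lfng* (-2.35, adjusted p = 0.000177) were lower in MBD2a than in MBD2t. *Nuak2* (1.65, adjusted p = 0.000415) and *Gpr179* (2.33, adjusted p = 0.0125) were higher. *Hand1* (-2.53, adjusted p = 0.07), *Peg10* (-1.21, adjusted p = 0.0798) and *Pax6* (1.22, adjusted p = 0.132) did not pass. As MBD2t was sampled from only 1 clone, the variation between clones is missing from its spread, and this comparison shares the MBD2a libraries with the one above. *Mbd2* was higher in MBD2t (log2 difference of MBD2a minus MBD2t -2.10, adjusted p = 2.77e-05), so the isoform and the level of *Mbd2* transcript cannot be told apart.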

How the data were processed

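RNA-seq of NPCs was deposited by the authors as a table of raw read counts per gene (25400 genes, 24 libraries). The authors trimmed reads with Trim Galore, aligned them with STAR to mm9 and counted them per gene with QuasR, and no normalisation was applied before deposit. The strand setting of the counting is not given in the sources used here. Columns were mapped to lines by name, since they carry library numbers and no replicate numbers. The point mutant's columns are named for another residue than its labels, and were taken as the only MBD2a point mutant in the series. They entered the shared fit, the *Mbd2* and *Mbd3* levels by line and the axis positions plotted, but not the values compared. Total counts per library for the compared lines were 31875299 to 41444516.

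Counts were tested with edgeR 4.0.16 (R 4.3.3, TMM, filterByExpr, quasi-likelihood F test) in 1 fit of all 24 libraries, with the contrast MBD2a minus *Mbd3* KO and Benjamini-Hochberg adjustment over all 16582 genes. Genes were called at adjusted p under 0.05 and a log2 difference beyond 1. SE is the log2 difference divided by the root of F. CPM are TMM-scaled. The script was tested on simulated data. No pair of libraries of a line agreed within sampling noise (chi-square per gene at least 10.2).

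Named genes were, among those called without overlap, the 10 that rose most and the 10 that fell most, at a mean of at least 1 log2 CPM, up to 4 called members of each list (or, with none called, the 2 most abundant), the genes the study names, and by name only the 5 largest rises and falls below that level. Some genes under this rule are not reported here. Others are marked as chosen after their values were seen. The gene lists, and the members compared, were chosen with earlier results of these data known. Positions come from the NCBIM37 (mm9) gene models, promoter sequence from RefSeq (GRCm38.p6). RefSeq windows covered 75.6% of tested genes, too few for a comparison over sets, so that comparison used start sites of the NCBIM37 models. Alternatives covered normalisation, filters, DESeq2 1.42.0, thresholds, the libraries fitted and each left-out library. ChIP-seq samples and the authors' own comparisons were not used here.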

Additional observations from a re-analysis of the deposited data

How the results depend on the processing

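The count of called genes moved with the libraries and thresholds more than with the scaling. With only the 6 libraries fitted it was 140 (11 higher, 129 lower), with glmTreat against a 2-fold change 108 (4 higher, 104 lower), with an unadjusted p 1325 (287 higher, 1038 lower), and with no fold threshold 1140 (377 higher). Leaving out each library gave 338 to 1035 called, 52 to 200 higher and 258 to 835 lower, lowest without s13 or s14 and highest without s15, and without s04 and s15 together 814 were lower. MBD2a against MBD2t gave 227 to 763 (chosen after seeing the data), and the axis difference was -25.2 to -10.4 points. Of 76 called genes named, 75 kept their sign in every setting and 13 their call, all of them falls. Signs turned for *Lars2* and for genes that were not called. *Mbd3* was -0.0094 with only the 6 libraries, -0.019 with RLE size factors, -0.0036 without a filter, -0.014 with a stricter filter, -0.019 with DESeq2 and -0.024 without s04 and s15. Without that pair *Pou5f1* was 0.28, *Nanog* 0.16, *Zfp42* 0.049, *Dppa2* 0.045 and *Lars2* 0.19. With each library left out in turn the log2 difference was -0.31 to 0.070 for *Rbbp7*, -0.034 to 0.42 for *Gapdh*, -0.10 to 0.43 for *Pkm*, -0.27 to 0.25 for *Mbd3*, -0.25 to 0.66 for *Sox2*, -0.72 to 0.31 for *Dcx*, -0.42 to 0.44 for *Pou5f1*, -0.68 to 0.31 for *Nanog*, -0.40 to 0.29 for *Klf4*, -0.43 to 0.025 for *Klf5*, -0.68 to 0.25 for *Zfp42*, -0.6355 to 0.54 for *Dppa2*, -0.62 to 0.36 for *Dppa5a* and -3.07 to 0.12 for *Lars2*. The cause was not tested. No paired analysis was possible because the columns carry no replicate numbers.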

Other observations

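Some abundant genes outside the lists also differed, and were chosen after their values were seen. *Sin3b*, a co-repressor that binds histone deacetylases, was at 516.2, 427.4 and 555.1 CPM in s04 to s06 and at 162, 163.3 and 250.2 CPM in s13 to s15, near the 156 ± 17.7 CPM (SD, n = 3) of WT (log2 difference -1.38 ± 0.15, SE, adjusted p = 3.73e-05, edgeR). *Sdc1*, a cell surface proteoglycan, fell from 178 ± 27.3 to 51.5 ± 9.28 CPM and kept its call in every setting. *Nrk*, an X-linked kinase gene of the placenta, was at 240.5 to 421.5 CPM in *Mbd3* KO and 32.4, 35.1 and 91.5 CPM in MBD2a, and its call was lost without s05, s06, s13 or s14. *Igfbp2*, a binding protein of insulin-like growth factors, rose from 255 ± 30.0 to 609 ± 194 CPM (SD, n = 3), with WT at 1284 ± 43.7 CPM, and lost its call without s14. *Fzd7*, a Wnt receptor, rose from 141 ± 24.6 to 291 ± 66.9 CPM (log2 difference 1.05) and lost its call without s04 or s13, with WT at 140 ± 22.2 CPM.

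Transcripts of the Y chromosome differed between libraries of both lines. *Ddx3y*, an RNA helicase gene, was at 7.89, 7.37 and 3.17 CPM in s04 to s06 and 0.403, 0.412 and 1.30 CPM in s13 to s15. *Eif2s3y* was at 6.86, 4.76 and 1.27 CPM against 0.230, 0.206 and 1.07 CPM, and *Uty* fell from 1.63 ± 0.631 to 0.210 ± 0.0610 CPM (SD, n = 3). *Uba1y* did not pass the test (adjusted p = 0.254, edgeR) but did without s15 (adjusted p = 0.0416). WT had 22.4 ± 6.07 CPM of *Eif2s3y* and 13.6 ± 4.16 CPM of *Uty*. Low *Uty* was shared by other construct lines. It was at 0.115 to 0.560 CPM with MBD3a lacking its methyl-CpG-binding domain and at 0.456 to 0.786 CPM with the MBD2a point mutant. With MBD2a lacking its glycine-arginine repeat it was at 0.277 to 1.73 CPM, with MBD3a at 0.694 to 10.0 CPM and with MBD2t at 4.66 to 5.33 CPM. The calls of *Ddx3y*, *Eif2s3y* and *Uty* were lost without s13 or without s14, those of *Eif2s3y* and *Uty* also without s04 or s05, and that of *Eif2s3y* also with library-size scaling or without a filter on low counts.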
